A study of Mus musculus with 14 samples.

Results

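Chaperones, protein disulfide isomerases and endoplasmic reticulum (ER) stress genes were compared between miR-122 knockout and control mouse liver. The set held the genes whose symbol begins with Hspa, Hspb, Hspd, Hspe, Hsph or Hsp90, with Dnaja, Dnajb or Dnajc and a number, or with Pdia and a number. Added by name were Ddit3, Atf4, Atf5, Xbp1, Herpud1, Sdf2l1, Creld2, Asns, Trib3, Chac1, Psat1, Calr and Canx. In all, 77 genes of 12903 named genes met the rule, from 107 of the 14996 probe sets in the authors' results table. A further 16 genes of these families were not analysed here, among them Hspa1b, a near-identical copy of Hspa1a, and Ppp1r15a, which was also on the list of names.

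The study profiled liver RNA of male mice on Affymetrix arrays, with 14 samples at 5 and 8 weeks of age. The comparison here used the 5-week samples, 2 controls and 2 knockouts. Per the labels, control mice carried the floxed allele alone (miR-122loxP/loxP), and knockout mice carried the same allele with Alb-Cre (miR-122loxP/loxP Alb-Cre), on a background written as 57/BL6J. Alb-Cre expresses the Cre recombinase from the albumin promoter, which is active in hepatocytes, and as labelled only the knockouts carried it. The study's design text instead calls the 5-week knockout germ-line, and the 5-week controls are titled wild type, so the kind of deletion is not settled by the labels. The labels do not say whether the samples were separate mice or pools, so a p-value measures the spread between these samples only. The 8-week samples, 5 controls and 5 knockouts on another array type, were not analysed here, and neither was miR-122 itself.

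Chaperones bind unfolded proteins and help them fold. Hsp70 proteins do this with J-domain partners (the Dnaj genes) in the cytosol, the ER and the mitochondria. Hsp90 proteins act on late folding steps, and Hsp60 with Hsp10 forms a folding chamber in mitochondria. In the ER, which folds the many plasma proteins that hepatocytes secrete, protein disulfide isomerases form disulfide bonds and calnexin and calreticulin hold glycoproteins. Unfolded protein in the ER activates the sensors Ern1 (IRE1), Atf6 and Eif2ak3 (PERK), which act through Xbp1, Atf6 and Atf4 to raise chaperone and amino acid synthesis genes. miR-122 is the most abundant microRNA of hepatocytes and lowers the messenger RNAs it pairs with.

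All levels below are log2 signals from robust multi-array averaging (RMA), and each difference is the knockout mean minus the control mean on that log2 scale, with 2 samples a group. A gene was called when limma's Benjamini-Hochberg adjusted p over all 12903 genes was under 0.05. By that rule 574 genes were called, 4.45% of all, of which 479 were higher and 95 lower in the knockout. None of the 77 members was called. The p-value before adjustment was under 0.05 for 10 members with a lower knockout mean (12.99%, against 8.41% of all genes) and for 6 with a higher one (7.79%, against 16.3%). Both knockouts were below both controls for 30 members (38.96%, against 27.0% of all genes) and above both for 17 (22.08%, against 32.1%). The knockout mean was the lower for 48 members (62.34%, against 48.6%). The median difference was -0.11 over the members and 0.005 over all genes, whose middle 50% lay between -0.16 and 0.225.

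Differences among the members were small. Asns, at 1.71, was the 1 member that differed by 1 or more on the log2 scale, a size reached by 4.01% of all genes. In size, 45 members differed by less than 0.25. The lower and upper quartiles of all genes, -0.16 and 0.225, were also under 0.25 in size. That count therefore does not set the members apart from all genes. With any 1 sample left out, limma called none of the 12903 genes. In the authors' deposited table, whose p-values were adjusted by Benjamini-Hochberg for this comparison, 13.3% of all genes and 3 members (3.90%) were under 0.05. Those members were Dnaja3, Dnajc15 and Hsp90b1, all lower in the knockout. Limma with an intensity trend in its variance prior called the same 3 members, against 9.97% of all genes.

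**Figure D1:**
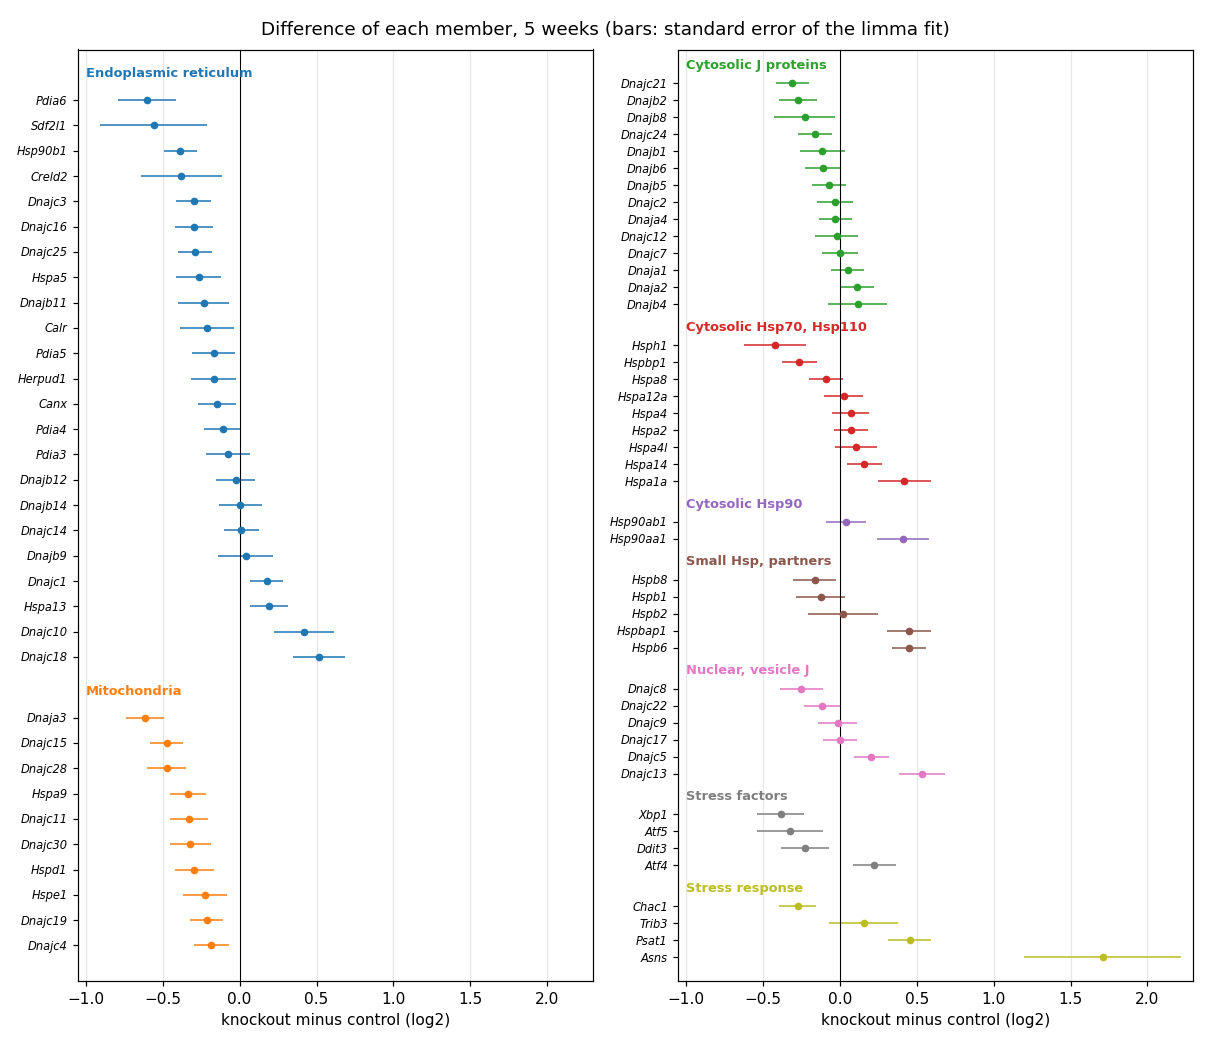
Knockout minus control difference (log2 RMA signal, horizontal axis) of each of the 77 members, 1 point per gene with bars of 1 standard error, grouped by role. All 10 mitochondrial members lie left of 0, 16 of the 23 ER members do too, and Asns lies alone at 1.71.

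Liver identity and the mix of cells were read from marker genes. The 8 hepatocyte markers, among them Alb, Apoa1 and Ttr, had mean levels between 11.31 and 13.68, and none was called. Their summed linear signal was 66906 to 67832 in the controls and 66044 to 67442 in the knockouts. Macrophage markers rose: 8 of 10 were called, and their summed signal went from 3891 to 4255 in the controls to 8232 to 8941 in the knockouts. Of the stellate cell and fibroblast markers 5 of 9 rose (4312 to 5394 against 7230 to 7315), while Des (0.095) and Acta2 (-0.235) overlapped. Of the cholangiocyte markers 3 of 7 rose, Spp1, Cldn7 and Prom1 (summed signal 669 to 807 against 2940 to 3328). Most of that summed rise came from Spp1 alone, at 7.81 and 8.11 against 11.11 and 11.28. The keratins Krt19 (-0.315) and Krt7 (0.1) overlapped. Among other cell types, 1 of 4 measured genes of the lymphocyte list rose, Ptprc, which is not particular to lymphocytes. The other genes of that list, Cd79b (0.45), Nkg7 (0.52) and Cd3e (0.075, overlapping), were not called. Of 3 measured neutrophil markers 1 rose, S100a8, while none of 6 endothelial and 3 erythroid markers was called. The endothelial markers had 4 higher and 2 lower knockout means. Lyve1 read 8.43 and 8.52 in the controls and 7.55 and 7.80 in the knockouts (-0.80, limma adjusted p = 0.053). It passed with the authors' p-values after Benjamini-Hochberg adjustment (0.0157). Cdh5 differed by 0.45, with both knockouts above both controls. No marker lay under the median level of olfactory receptor genes in all 4 samples. In such bulk RNA, fewer cells of a type and less RNA per cell cannot be told apart. The part of this shift in cell markers in any difference below was not tested.

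The mitochondrial chaperones stood lowest as a group. By the probe set of highest mean, all 10 measured members had both knockouts below both controls, a pattern of 27.0% of all genes, with differences from -0.615 to -0.185 and a median of -0.325. None was called by limma. The limma p-value before adjustment was under 0.05 for 5, all with a lower knockout mean, against 8.41% of all genes. With the authors' p-values after Benjamini-Hochberg adjustment 2 passed, both lower, against 13.3% of all genes in either direction. With both knockouts below both controls, leaving out any 1 sample could not turn the sign of a mean. The replicate block, the variance trend and the filter on dim probe sets left the differences as they were. So these refits are no further support. All 10 means were also lower with quantile normalization, with median centring and with the mean of all probe sets of a gene. Control 1 was above control 2 for 5 of the 10.

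Dnaja3, the J-domain partner of mitochondrial Hsp70, had the largest difference of the group. Its levels were 9.53 and 9.48 in the controls and 8.98 and 8.80 in the knockouts, a difference of -0.615 (SE 0.12, limma adjusted p = 0.0675). Dnajc15, an inner membrane J protein of the import motor that also restrains the respiratory chain, read 8.54 and 8.51 in the controls and 8.08 and 8.02 in the knockouts (difference -0.475, SE 0.11, limma adjusted p = 0.0831). For both genes the gap between the groups was larger than the gap within either group. They are named because of these values, and so is Dnajc28, a J-domain gene at 6.82 and 6.98 against 6.49 and 6.36 (difference -0.475, limma adjusted p = 0.111).

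The core folding machines of the matrix differed less. Hspa9, the mitochondrial Hsp70, read 11.09 and 11.19 in the controls and 10.87 and 10.74 in the knockouts (difference -0.335, limma adjusted p = 0.182). Hspd1 (Hsp60) read 10.63 and 10.84 against 10.45 and 10.43 (-0.295, limma adjusted p = 0.246). The groups overlapped in its second probe set, at 9.81 and 10.12 against 9.77 and 9.82 (-0.17). Hspe1 (Hsp10), the lid of the Hsp60 chamber, read 11.13 and 11.38 against 11.11 and 10.95. The groups of Hspe1 were separated by only 0.02, and its difference of -0.225 (limma adjusted p = 0.413) was smaller than the 0.25 between the 2 controls. Dnajc19, an import motor J protein, read 10.53 and 10.45 against 10.28 and 10.27, a difference of -0.215 (limma adjusted p = 0.310), and its second probe set differed by -0.435. The other members were Dnajc11, Dnajc30 and Dnajc4, with differences of -0.33, -0.32 and -0.185.

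**Figure D2:**
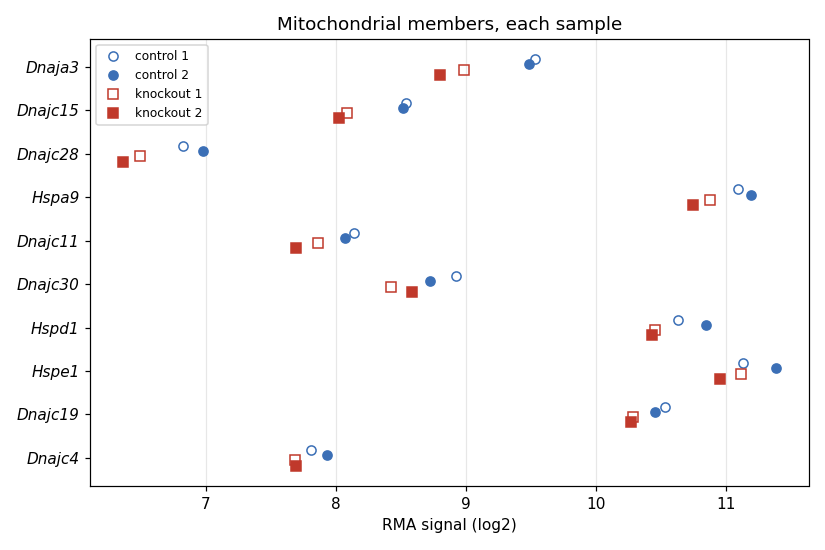
RMA signal (log2, horizontal axis) of the 10 mitochondrial members in each of the 4 samples, with circles for controls and squares for knockouts. In each row both squares lie left of both circles, by the widest margin for Dnaja3 and Dnajc15 and by 0.02 for Hspe1.

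Hspd1 and Hspe1 lie head to head and share the stretch between their starts. It is shown because it holds the heat shock element (GAA, any 2 bases, TTC, any 2 bases, GAA, or the inverse order beginning with TTC), to which heat shock factors bind. The window read for each gene spanned 250 bases before and 50 after its start, from RefSeq on build GRCm38.p6, and 64 of the 77 members had one. The stretch reads 5′ to 3′ on the Hspe1 strand, with 2 overlapping matches in capitals.
Hspe1 (chr1:55088029-55088106, plus strand): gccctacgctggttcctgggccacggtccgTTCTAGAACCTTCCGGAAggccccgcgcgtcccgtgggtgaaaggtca
Dnajb6 and Hsph1 held the element too, making 4 of 64 members against 0.662% of the 27025 genes with a window. Dnajb6, a cytosolic J protein, differed by -0.11 and Hsph1, a cytosolic Hsp110, by -0.42. A match of letters is a description and not evidence of binding. Heat shock factor genes were not called (0 of 4), with Hsf4 at -0.655 (limma adjusted p = 0.0917), Hsf1 at -0.11, Hsf2 at 0.035 and Hsbp1, a small protein that binds the factor, at 0.03.

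Mitochondrial chaperones and proteases outside the naming rule were read from a list of their own. Of 14 measured, 12 had a lower knockout mean (85.71%, against 48.6% of all genes), with a median of -0.275. Both knockouts were below both controls for 10 (71.43%, against 27.0%) and above both for 2 (14.29%, against 32.1%). None was called. Grpel1, the exchange factor of mitochondrial Hsp70, read 9.82 and 9.80 against 9.21 and 9.28 (-0.565, limma adjusted p = 0.0635). Trap1, the mitochondrial Hsp90, read 9.99 and 9.93 against 9.43 and 9.37 (-0.56, limma adjusted p = 0.0656). Clpx, the unfoldase of the Clp protease, differed by -0.57. The largest difference the other way was that of Hscb, the J protein of iron-sulfur cluster assembly, at 6.11 and 6.32 against 6.81 and 6.76 (0.57, limma adjusted p = 0.0808).

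ER chaperones and folding enzymes had 23 measured members. Of these, 16 had a lower knockout mean (69.57%, against 48.6% of all genes). Both knockouts were below both controls for 8 (34.78%, against 27.0%) and above both for 4 (17.39%, against 32.1%). The median was -0.17 and the range -0.605 to 0.515, and limma called none. The limma p-value before adjustment was under 0.05 for 4 of the 23 with a lower knockout mean, against 8.41% of all genes. It was under 0.05 for 1 with a higher knockout mean, against 16.3%. With the authors' p-values after Benjamini-Hochberg adjustment 1 passed, Hsp90b1, against 13.3% of all genes in either direction. The size depended on the samples taken. Control 1 was above control 2 for 15 of the 23 (54.1% of all genes), and the median was -0.045 without control 1 and -0.195 without control 2. The count of lower means was 14 without control 1, 19 without control 2, 14 without knockout 1 and 18 without knockout 2.

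Hsp90b1 (GRP94), the Hsp90 of the ER, was the most even of these genes. Its levels were 11.06 and 11.08 in the controls and 10.69 and 10.68 in the knockouts, a difference of -0.385 (SE 0.11, limma adjusted p = 0.118). Pdia6, a disulfide isomerase that also damps the sensors Ern1 and Eif2ak3, read 8.96 and 9.16 against 8.24 and 8.67 (-0.605, SE 0.19, limma adjusted p = 0.148). Both genes had groups that did not overlap, with far more spread between the knockouts for Pdia6. Hspa5 (BiP), the ER Hsp70 and the standard readout of ER stress, read 11.17 and 10.96 against 10.69 and 10.91. Its groups were separated by 0.05, less than the spread within either, and the difference was -0.265 (limma adjusted p = 0.346).

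The glycoprotein chaperones differed by less. Calr (calreticulin) read 11.01 and 10.64 in the controls and 10.51 and 10.72 in the knockouts, and the groups overlapped (-0.21, limma adjusted p = 0.526). Canx (calnexin) read 11.68 and 11.83 against 11.55 and 11.67 (-0.145, limma adjusted p = 0.533). The disulfide isomerases Pdia4 and Pdia3, the partner of calnexin and calreticulin, differed by -0.11 and -0.075. The sign for Pdia3 turned without control 1 (0.045) and without knockout 1 (0.01).

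3 further genes are known targets of the unfolded protein response. Sdf2l1, a partner of the ER J protein Dnajb11, read 9.26 and 8.41 in the controls and 8.00 and 8.55 in the knockouts. Creld2, an ER-stress-inducible secreted protein, read 8.62 and 7.99 against 7.74 and 8.11. In both genes 1 control was high and the other lay between the knockouts, so the differences of -0.56 and -0.38 became -0.135 and -0.065 without control 1. Herpud1, an adaptor of ER-associated degradation, read 11.26 and 11.53 against 11.16 and 11.29, with overlapping groups (-0.17, limma adjusted p = 0.534).

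A minority of ER members lay on the other side. Dnajc18, a membrane J protein, read 6.26 and 6.55 in the controls and 6.78 and 7.06 in the knockouts (0.515, limma adjusted p = 0.161). Dnajc10, an ER disulfide reductase, read 6.93 and 7.35 against 7.43 and 7.69 (0.42, limma adjusted p = 0.273). Hspa13 and Dnajc1 also had both knockouts above both controls, by 0.19 and 0.175. All 4 fell short of the threshold, and the differences of Dnajc18 and Dnajc10 were 0.37 and 0.21 without control 1.

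**Figure D3:**
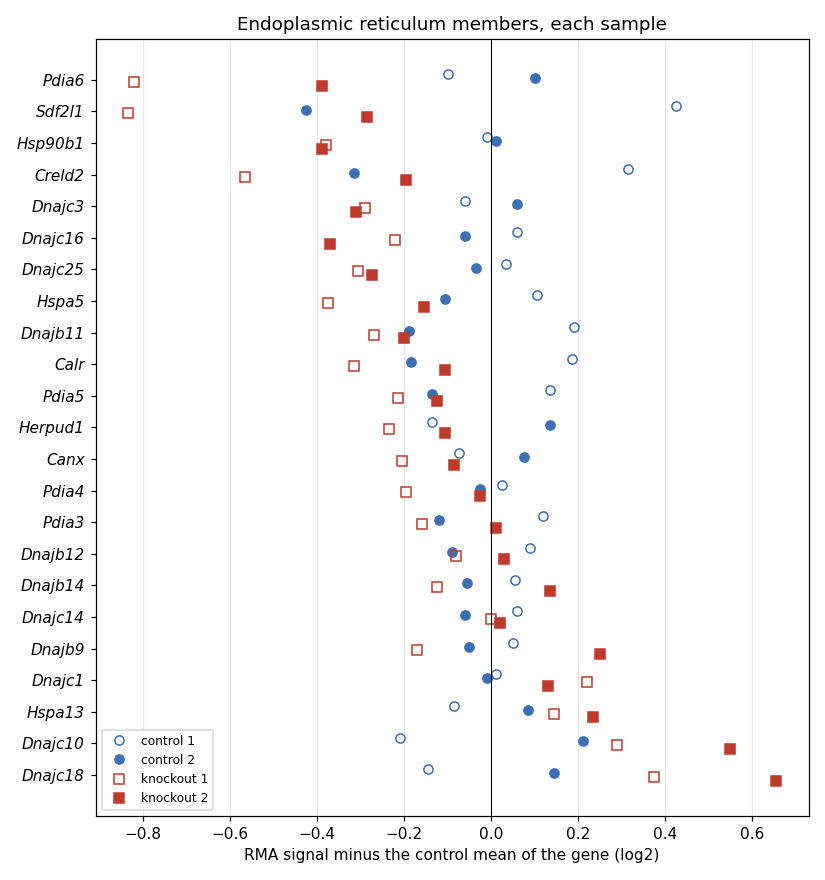
RMA signal of the 23 ER members in each of the 4 samples, as the log2 distance from the control mean of the gene (horizontal axis), with circles for controls and squares for knockouts. Both squares lie left of both circles in 8 rows and right of both in 4, and the wide gaps between the circles of Sdf2l1 and Creld2 show how far the 2 controls differ.

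Promoters of several ER members carry the ER stress response element (CCAAT, any 9 bases, CCACG, on either strand), the site through which Atf6 and Xbp1 act. It was found in 7 of 21 ER members with a window (33.3%) against 37 of 27025 genes (0.137%). The holders were Hspa5, Hsp90b1, Calr, Canx, Pdia6, Dnajc3 and Creld2. The stretches of 4 of them follow, on the strand of the gene and 5′ to 3′, with the element in capitals, to show how closely the element recurs beside different sequence.
Hspa5 (chr2:34771995-34772073, plus strand): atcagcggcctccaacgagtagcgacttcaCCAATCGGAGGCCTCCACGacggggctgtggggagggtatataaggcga
Hsp90b1 (chr10:86705503-86705686, minus strand): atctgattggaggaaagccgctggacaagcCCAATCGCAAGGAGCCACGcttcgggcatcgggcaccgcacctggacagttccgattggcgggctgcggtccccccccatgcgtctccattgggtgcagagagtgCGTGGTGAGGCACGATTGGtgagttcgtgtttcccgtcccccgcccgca
Pdia6 (chr12:17266461-17266539, plus strand): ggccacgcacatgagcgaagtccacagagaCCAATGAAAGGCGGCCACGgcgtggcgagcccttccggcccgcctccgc
Creld2 (chr15:88819490-88819568, plus strand): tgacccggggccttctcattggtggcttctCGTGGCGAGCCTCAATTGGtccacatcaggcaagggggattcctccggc
Hsp90b1 held the element 2 times, once on each strand, and Creld2 held it on the opposite strand. All 7 holders had a lower knockout mean, from -0.605 to -0.145 with a median of -0.30. The 14 ER members with a window and no element had 9 lower and 5 higher means and a median of -0.0925. This contrast between holders and the rest was not tested. The 10 measured holders that are no members had 8 lower and 2 higher means, a median of -0.095 and a range from -1.525 to 0.655. The 1 holder called was Acacb, which makes malonyl-CoA at the mitochondrial surface and is no chaperone (-1.115, limma adjusted p = 0.0307). A second form of the element (ATTGG, any base, CCACG) stood in Herpud1 and Dnajb11, and the unfolded protein response element (TGACGTGG) in Dnajc25.

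The stress transcription factors had knockout means on both sides of the controls. None of 4 was called, and control 1 was above control 2 for all 4. Xbp1, which Ern1 activates by splicing, read 11.24 and 10.98 in the controls and 10.62 and 10.83 in the knockouts (-0.385, SE 0.15, limma adjusted p = 0.220). The signal is for the whole gene and does not separate the spliced form. Atf4, the factor made when translation is restrained, read 7.57 and 7.35 against 7.76 and 7.61, with both knockouts above both controls by at least 0.04 (0.225, limma adjusted p = 0.390). Ddit3 (CHOP), a death-linked factor that Atf4 raises, read 6.75 and 6.46 against 6.28 and 6.48 (-0.225, limma adjusted p = 0.450). Atf5, a factor of the mitochondrial stress response, read 9.74 and 9.25 against 9.31 and 9.03 (-0.325, limma adjusted p = 0.426). The groups overlapped for Ddit3 and Atf5, and the median of the 4, -0.275, was -0.08 without control 1 and -0.4425 without control 2.

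Among the genes these factors act on, Asns (asparagine synthetase) differed most of all members. Its levels were 9.89 and 8.38 in the controls and 10.81 and 10.88 in the knockouts, 3.27-fold higher in the knockout mean (difference 1.71, SE 0.51, 95% interval 0.361 to 3.06, limma adjusted p = 0.136). Both knockouts agreed closely and lay above both controls, but the controls were 1.51 apart. The difference was 0.955 without control 2 and 2.465 without control 1, so its size rests on which control is taken. Psat1, an enzyme of serine synthesis, read 5.55 and 5.75 against 6.01 and 6.20 (0.455, limma adjusted p = 0.143). It was the 1 member with a mean level under 5.98, taken as a rough guide to background. That is the median level of the 43 olfactory receptors in the authors' results table. The authors' results table holds 14996 of the 35556 probe sets, so receptors outside it did not enter the median. Chac1, which degrades glutathione, read 6.89 and 6.80 against 6.65 and 6.49 (-0.275, limma adjusted p = 0.259). Trib3, a pseudokinase, read 7.05 and 6.57 against 7.14 and 6.79, and its difference of 0.155 turned sign without control 2 (-0.085) and without knockout 1 (-0.02).

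**Figure D4:**
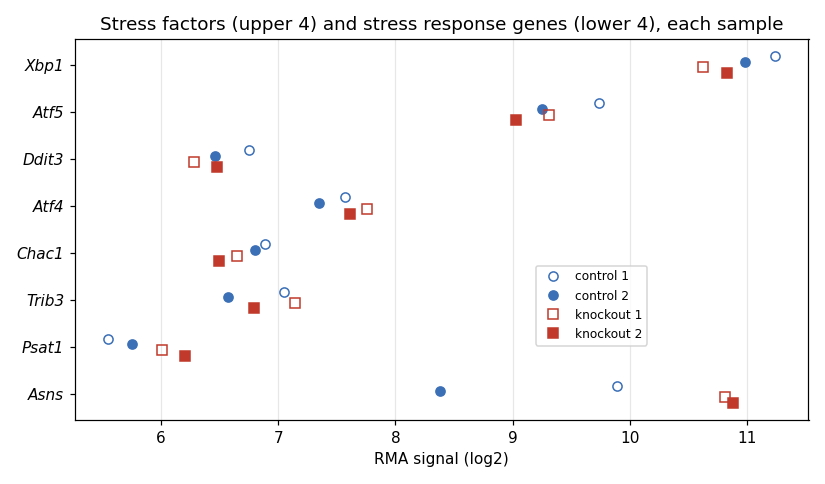
RMA signal (log2, horizontal axis) of the 4 stress factors and the 4 stress response genes in each of the 4 samples, with circles for controls and squares for knockouts. Asns shows the widest gap, with both squares near 10.8 and the circles at 8.38 and 9.89, and the circles and squares interleave for Atf5, Ddit3 and Trib3.

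The core of the amino acid response element (TGATGNAA on either strand), where Atf4 acts with C/EBP proteins, was found in Asns, Trib3 and Chac1, which is 3 of the 4 response genes, and in 4.51% of all genes. Herpud1 and Hspa14 also held it. The stretches of the 3 response genes are given on the strand of each gene, 5′ to 3′, with the core in capitals, because these 3 share the core and not the direction of difference.
Asns (chr6:7693195-7693262, minus strand): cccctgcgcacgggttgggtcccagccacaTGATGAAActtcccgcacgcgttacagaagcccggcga
Trib3 (chr2:152344011-152344076, minus strand): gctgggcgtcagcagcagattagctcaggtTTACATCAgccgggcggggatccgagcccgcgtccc
Chac1 (chr2:119351019-119351086, plus strand): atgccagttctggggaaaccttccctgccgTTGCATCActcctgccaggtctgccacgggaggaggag
Trib3 and Chac1 carry the core on the opposite strand. With 1.71 for Asns, 0.155 for Trib3 and -0.275 for Chac1, genes with the same core ranged from the highest difference of the set to one below 0.

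Other targets of the Atf4 branch were read from a list outside the rule. Limma called 1 of 26 measured, against 4.45% of all genes, and the median was 0.0375. Both knockouts were above both controls for 10 (38.46%, against 32.1%) and below both for 3 (11.54%, against 27.0%). The limma p-value before adjustment was under 0.05 for 7 with a higher and 0 with a lower knockout mean (16.3% and 8.41% of all genes). With the authors' p-values after Benjamini-Hochberg adjustment 3 passed, Aldh18a1, Atf3 and Ddit4, all higher, against 13.3% of all genes. The 1 that limma called was Aldh18a1, which starts proline synthesis, at 5.83 and 5.79 against 6.71 and 7.01 (1.05, limma adjusted p = 0.0409). Both of its controls lay under 5.98, the olfactory receptor median taken as a rough guide to background. Atf3, a stress-induced factor, differed by 0.63 (limma adjusted p = 0.0809), Ddit4, an inhibitor of mTORC1, by 0.77 (0.107) and Sars, the seryl-tRNA synthetase, by 0.41 (0.117). Of the 12 sensors and regulators, Bak1, a mitochondrial and ER death protein, rose from 7.70 and 7.37 to 8.62 and 8.64 (1.095, limma adjusted p = 0.0409). Eif2ak3 itself read 7.01 and 6.81 against 7.40 and 7.52 (0.55, limma adjusted p = 0.0907), while Mbtps2, a protease that releases Atf6, and Bax, a relative of Bak1, differed by 0.22 and -0.225. The other eIF2alpha kinases were not called, at 0.40 for Eif2ak1, -0.28 for Eif2ak2 and 0.065 for Eif2ak4.

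None of the remaining ER lists had a called gene. The 23 genes of ER-associated degradation had a median of 0.01, with Derl3 at 6.96 and 7.08 against 6.18 and 6.35 (-0.755, limma adjusted p = 0.0515). Derl3 is an ER-stress-inducible derlin, and its promoter also held the ER stress response element. The next by p were Sel1l, the adaptor of the ubiquitin ligase, at -0.49, Ube2j2, a ubiquitin-conjugating enzyme, at 0.46 and Derl2 at -0.30. For the 18 translocon and signal peptidase genes the median was 0.0825, with Srpr, the receptor of the signal recognition particle, at -0.44, Sec61b at 0.30, Sec11c at 0.28 and Spcs2 at 0.325. The 13 genes of glycan addition and trimming had a median of -0.005, with the glucosidase genes Mogs at -0.42 and Ganab at -0.375, Stt3b at 0.255 and Krtcap2 at -0.205. Lastly, the 19 oxidative folding and cofactor genes had a median of -0.02, with Sil1, the exchange factor of Hspa5, at -0.42, Manf at -0.37, Fkbp2 at -0.225 and Txndc5 at -0.21.

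As a whole, the cytosolic chaperones were split in direction, much as all genes were. Of 30 members, 15 had a lower knockout mean (50%, against 48.6% of all genes), and the median was -0.01. Both knockouts were below both controls for 8 (26.67%, against 27.0%) and above both for 8 (26.67%, against 32.1%). None was called. Hsp90aa1, the inducible Hsp90, read 9.62 and 9.97 in the controls and 10.11 and 10.30 in the knockouts (0.41, limma adjusted p = 0.233), and its 3 probe sets all lay between 0.36 and 0.41. Hsp90ab1, the constitutive form, read 11.74 and 11.50 against 11.64 and 11.68 and differed by 0.04. Hspa1a, the heat-inducible Hsp70, read 7.55 and 7.48 against 7.73 and 8.14 (0.42, limma adjusted p = 0.234), and part of its signal may come from Hspa1b. Its 3 probe sets ran from 0.155, with overlapping groups, to 0.42, and the latter was 0.215 without knockout 2. Hsph1, an Hsp110 exchange factor, read 7.54 and 7.58 against 6.88 and 7.40 (-0.42, limma adjusted p = 0.290). All 3 are genes that heat is known to raise, and they lay on both sides of the controls, short of the threshold. Hspa4, another Hsp110, and Hspbp1, an exchange factor, differed by 0.07 and -0.265.

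The size for Hspa8, the constitutive Hsp70, depended on the probe set. The probe set with the highest mean read 12.55 and 12.46 in the controls and 12.42 and 12.41 in the knockouts, a difference of -0.09 (limma adjusted p = 0.672). All 5 of its probe sets had both knockouts below both controls, with differences from -0.89 to -0.09. The most extreme read 12.54 and 11.06 against 11.02 and 10.80, so that 1 control set the size. Of the 11 members with several probe sets, Hspb1 alone had differences of both signs.

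Cytosolic J proteins and small heat shock proteins held the remaining cytosolic values. Of the 14 J proteins, 10 had a lower knockout mean (71.43%, against 48.6% of all genes) and 3 a higher one, and the median was -0.05. Both knockouts were below both controls for 5 (35.71%, against 27.0%) and above both for 2 (14.29%, against 32.1%). The 4 with the highest control signals were Dnajb6 at -0.11, Dnaja2 at 0.11, Dnaja1 at 0.05 and Dnajb4 at 0.115. Among 5 small heat shock genes and partners, Hspb6, known best from muscle, read 8.09 and 8.07 in the controls and 8.47 and 8.59 in the knockouts (0.45, SE 0.11, limma adjusted p = 0.101). Its groups were well apart. Hspbap1, which encodes a partner of Hspb1, read 6.14 and 6.34 against 6.79 and 6.59 (0.45, limma adjusted p = 0.148), while Hspb8 (-0.165), Hspb1 (-0.125) and Hspb2 (0.02) overlapped. Cochaperones outside the rule gave 0 calls of 20 and a median of -0.08, with Cdc37l1 at -0.39, Ahsa1, the activator of the Hsp90 ATPase, at -0.31, Cdc37, which loads kinases, at -0.285 and Unc45a at 0.26. The cytosolic chaperonin and prefoldin list gave 0 of 14 and a median of -0.025, with Tcp1 at -0.52, Vbp1 at 0.795, Pfdn6 at -0.28 and Pfdn2 at -0.19.

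The last group was 6 J proteins of the nucleus, vesicles and other places, with a median of -0.0075. Dnajc13, an endosomal protein that works with Hsc70 in membrane sorting, read 8.60 and 8.92 in the controls and 9.31 and 9.28 in the knockouts (0.535, SE 0.15, limma adjusted p = 0.122). Its 14 probe sets all had both knockouts above both controls, with differences from 0.295 to 0.71, so no probe set stood apart in direction. These probe sets read 1 transcript in the same 4 samples and are not replicates of the comparison. Dnajc5, the cysteine string protein of secretory vesicles, differed by 0.205, Dnajc22 by -0.115 and Dnajc17 by 0.

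**Figure D5:**
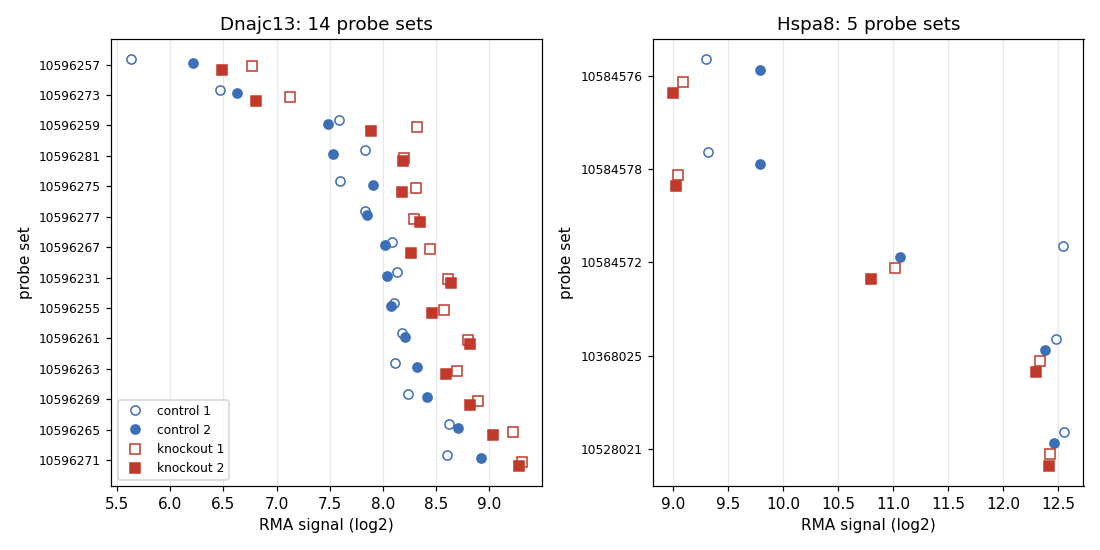
RMA signal (log2, horizontal axis) of each probe set of Dnajc13 (14 probe sets) and Hspa8 (5 probe sets) in the 4 samples, with circles for controls and squares for knockouts. For Dnajc13 both squares lie right of both circles in every row, and for Hspa8 both lie left, with 1 probe set whose controls are 12.54 and 11.06.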

How the data were processed

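Liver RNA was labelled with the WT Terminal Labeling kit and hybridised to Affymetrix arrays, per the labels' protocols. The authors used Affymetrix Expression Console and RMA, per the submitters' processing notes, and deposited log2 values with 2 decimals. For the genome build and for versions of these tools, nothing was given in the sources used here. The authors' deposited table adds log2 group means, a fold (a linear ratio of knockout over control) and a p-value for each probe set. Its group means matched the means of the per-sample values within 0.005. The table's 4 columns of per-sample values have names that match no label and were not used. The number of arrays, 2 per group, limits the precision.

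Limma 3.58.1 (R 4.3.3; lmFit and eBayes, two-sided) was fitted on all 35556 probe sets of the 5-week value table. The probe set of highest mean stood for a gene, and Benjamini-Hochberg adjustment ran over 12903 genes. On data made with known changes, the fit recovered 93.1% of 102 genes changed by 1 log2 unit and all of 98 changed by 2. It gave 14 false calls among the unchanged genes. The made noise was normal, with each gene's variance averaged with the median variance of all genes. Genes of wide spread, such as Asns, were thus made more even than they are. The recovery therefore does not measure how often real changes in such genes would be called. Python 3.11.15 with pandas 2.3.3 did the rest. Names came from RefSeq accessions for 13097 probe sets, from symbols for 1016, from synonyms for 488 and from the table alone for 387.

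The members, lists and markers were chosen with earlier results of these data known. The text names the members given by name, up to 4 further members per role with the highest control mean, up to 4 genes of smallest p per outside list, and members needed as exceptions. Dnaja3, Dnajc15, Dnajc28, Pdia6, Hspa1a, Dnajc18, Dnajc10 and Hspbap1 were singled out after their values were seen. Alternatives were a replicate block, each sample left out, a variance trend, a filter on dim probe sets, 2 scalings, the mean of probe sets and the authors' p-values. The 8-week samples were left out because their probe sets could not be named from the tables used here.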

Additional observations from a re-analysis of the deposited data

How the results depend on the processing

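The 77 members gave 0 calls in either direction with the replicate block, with quantile normalization, with median centring and with each sample left out. Over all genes the calls were 479 higher and 95 lower, and both counts were 0 with the replicate block (same-numbered samples share only a number, and their deviations correlated at 0.0455 across genes) and 0 to 0 across the settings that left out 1 sample. With the trend they were 959 and 327 (3 members lower). With dim probe sets left out they were 1066 and 331 (2 members lower) over 12868 genes, and with the mean of all probe sets 1362 and 528 (2 members higher, 3 lower). With the authors' p-values they were 1244 and 477 (3 members lower). The cause of these shifts was not tested. Dnaja3 and Dnajc15 were called in these last 4 settings (adjusted p 0.0201 to 0.035 and 0.0306 to 0.0468), and Hsp90b1 with the trend (0.0433) and the authors' p-values (0.0397). Dnajc13 (0.0323, higher), Hspb6 (0.0404, higher) and Dnajc28 (0.0448, lower) were called with the mean of probe sets alone. The count of lower means, added after seeing the data, was 10 of 10 mitochondrial members in each setting that was run for it, and 14 to 19 of 23 ER members. For the mitochondrial members, only the 2 scalings and the mean of probe sets could have given another count. Their knockouts all lay below their controls, and the block, the trend and the dim filter do not change a difference. Leaving out 1 sample turned the sign of 16 members, the largest of them 0.23 in size, and other settings that of 3, none over 0.015. The planned 8-week alternatives were not run for want of probe set names, and the restriction to genes of the authors' table equals the reported fit. Signal over background limits Psat1, the 1 member under the olfactory receptor median. The same limit holds for genes outside the members whose controls lay under that median, such as Aldh18a1.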
